A study of Mus musculus with 81 samples.

Results

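Toll-like receptor (TLR) genes were followed in mouse macrophages with and without the histone variant H3.3. The mouse genes whose symbol is Tlr and a number were taken from the gene counts, and 10 of them (Tlr1, Tlr2, Tlr3, Tlr4, Tlr5, Tlr6, Tlr7, Tlr8, Tlr9 and Tlr13), out of 54079 genes listed for every library, are described here in 79 RNA-seq libraries that fall into 27 groups. TLRs are membrane proteins of innate immune cells that bind molecules of microbes. TLR1, TLR2, TLR4, TLR5 and TLR6 work at the cell surface, where TLR2 pairs with TLR1 or TLR6 on lipoproteins, TLR4 with its partner MD-2 reads lipopolysaccharide, and TLR5 reads flagellin. TLR3, TLR7, TLR8, TLR9 and TLR13 are carried by the chaperone UNC93B1 to endosomes, where they read nucleic acids. All but TLR3 signal through the adaptor MyD88, while TLR3 uses TRIF, and the endosomal receptors are well known as starters of type I interferon production.

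The mice were C57BL/6, 8 to 10 weeks old. WT mice carried floxed alleles of both H3.3 genes (H3f3a fl/fl H3f3b fl/fl) and no Cre. H3.3cKO (cKO) mice carried the same alleles with LysM cre/cre, so that Cre was driven by the Lyz2 locus in macrophages and granulocytes, deletion of both H3.3 genes was aimed at those cells, and Lyz2 itself was disrupted. WT cells had neither Cre nor the Lyz2 insertion, so that the effects of H3.3 loss, Cre and Lyz2 loss cannot be told apart. Bone marrow-derived macrophages (BMDMs) were grown in medium conditioned by L929 cells, which supply the macrophage growth factor M-CSF. The groups were cultures of either genotype harvested on day 3, day 5 or day 7 (3 libraries each, the earlier 2 days labelled as BMDM progenitors), day 8 BMDMs left untreated or treated with IFNγ for 12 hrs (3 WT and 2 cKO libraries each), peritoneal macrophages (3 each), BMDMs grown until day 6 with no antibody, with an isotype control antibody or with an antibody that blocks the type I interferon receptor subunit IFNAR1 (3 each), and 3 further sets of WT and cKO BMDMs (sets 1 to 3, 3 libraries each) deposited with cKO BMDMs that also lacked Sting, Mavs or Irf7 (3 each). The labels do not say which set belongs to which double knockout and give no day of culture for them. Another 2 day 8 cKO libraries bear a title and a library name that disagree on IFNγ, and they entered no comparison.

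Total counts on genes ran from 3614967 to 45581528 per library, lowest in the day 8 experiment (at most 9879339). The first cKO library treated with IFNγ was the smallest, with 78.1% of its reads outside the gene counts, and TLR results that rest on it are given without it too. H3f3a was 15 ± 0.458 CPM (gene counts scaled to the size of the library; mean ± SD, n = 3) in cKO against 54.9 ± 5.24 CPM in WT cells on day 3, and Lyz2 12.0 ± 6.58 against 10673 ± 2299 CPM. H3f3b, whose exons all lie in the floxed region per the study's methods, was 202 against 234 CPM on day 3 and did not pass the test (log2 fold change -0.21, edgeR adjusted p = 0.470), so its counts go against a complete deletion in these cultures. It fell in the antibody arms (48.9 against 376 CPM without antibody, log2 -2.95, with -2.93 under the control and -3.11 under the IFNAR1 antibody), while in the other 9 comparisons of cKO with WT cells it had log2 -0.41 to -0.16 and was not called. The libraries labelled cKO therefore did not show the same loss of H3f3b in each experiment, while H3f3a was called lower in all 12 (log2 -3.62 to -1.87). The study itself reports that H3f3b deletion varied, being complete in some cKO samples and partial in others. Its western blot showed H3.3 protein depleted in day 7 cKO BMDMs. Macrophage markers (Adgre1, Itgam, Csf1r, Cd68, Mertk and Fcgr1) summed to 2482 CPM or more in every library, and markers of peritoneal macrophages (Gata6, Timd4, Icam2, Selp, Cd5l) to 5942 CPM or more in peritoneal libraries against at most 215.6 CPM in BMDMs. Neutrophil and granulocyte precursor markers summed to 1583 to 4205 CPM on day 3 and to at most 276 CPM on day 7, so the day 3 cultures also held granulocytic RNA. As these are bulk libraries, fewer cells of a type and less RNA per cell cannot be told apart.

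The 10 genes lie on 7 mouse chromosomes (GRCm38 coordinates), and Tlr1 (chr5:64924679-64933563) and Tlr6 (chr5:64952031-64960097) are neighbouring paralogues on the minus strand, as are Tlr7 (chrX:167304929-167330558) and Tlr8 (chrX:167242696-167264329). The others are Tlr2 (chr3:83836272-83841767), Tlr3 (chr8:45395665-45411080), Tlr4 (chr4:66827584-66930284), Tlr5 (chr1:182954788-182976044), Tlr9 (chr9:106222598-106226883) and Tlr13 (chrX:106143204-106160493). Reads were counted without strand, so over the 381 exonic bases that Tlr3 shares with Gm45542 on the other strand the source of a read cannot be told. Promoter windows (250 bases before to 50 after the start, RefSeq, GRCm38.p6) matched 8 of the 10 genes and gave 10 windows, with no entry for Tlr4 and Tlr7. Those of Tlr3, Tlr9 and Tlr5 are printed because these 3 genes had the largest fold changes among those called. Capitals mark GAGGAA or its reverse complement TTCCTC, the core bound by the macrophage factor PU.1, and the windows are Tlr3 chr8:45410331-45410630 (minus strand), Tlr9 chr9:106222348-106222647 (plus strand) and Tlr5 chr1:182954538-182954837 (plus strand).
Tlr3: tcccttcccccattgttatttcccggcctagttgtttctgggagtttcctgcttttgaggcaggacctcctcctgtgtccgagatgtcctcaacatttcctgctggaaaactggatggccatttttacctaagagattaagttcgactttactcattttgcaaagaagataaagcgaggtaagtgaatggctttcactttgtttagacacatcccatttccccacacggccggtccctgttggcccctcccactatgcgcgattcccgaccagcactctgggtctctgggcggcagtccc
Tlr9: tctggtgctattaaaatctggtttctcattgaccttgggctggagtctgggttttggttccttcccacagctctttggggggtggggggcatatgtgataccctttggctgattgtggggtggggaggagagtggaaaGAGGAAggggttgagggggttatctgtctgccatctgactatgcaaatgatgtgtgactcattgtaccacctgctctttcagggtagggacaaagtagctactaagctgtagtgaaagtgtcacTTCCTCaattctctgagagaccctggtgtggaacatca
Tlr5: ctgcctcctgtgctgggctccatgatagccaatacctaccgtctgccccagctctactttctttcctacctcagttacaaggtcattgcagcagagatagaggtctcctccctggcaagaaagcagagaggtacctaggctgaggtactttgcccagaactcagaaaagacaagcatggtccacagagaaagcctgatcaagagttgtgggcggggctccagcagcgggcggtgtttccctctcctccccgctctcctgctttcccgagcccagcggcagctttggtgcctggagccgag
Searched on both strands, the PU.1 core was present in the windows of Tlr1, Tlr8, Tlr9 and Tlr13 (4 of 10 windows, against 28.3% of 32851 promoter windows of all genes). The interferon-stimulated response element core (GAAA and GAAA with any 2 bases between), read by interferon-activated factors, was present in 1 Tlr6 window (3.44% of all windows). Neither core stood in the windows of Tlr3 or Tlr5, where only exact matches were counted. The Tlr3 window (up to 45410630) lies within the gene span given above (up to 45411080). The bases before the start of that span were therefore not searched.

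Levels between genes were compared as CPM per kilobase of exon. Tlr13, which reads bacterial ribosomal RNA, had the highest mean of the 10 genes in 25 of 27 groups, and Tlr5 the lowest in 25. In untreated WT BMDMs on day 8, Tlr13 stood at 113 ± 13.8 CPM per kb (SD, n = 3), followed by Tlr7 at 65.6, Tlr8 at 34.5, Tlr4 at 31.8, Tlr2 at 23.5, Tlr1 at 11.2, Tlr9 at 6.61, Tlr3 at 3.80, Tlr6 at 3.03 and Tlr5 at 0.683 CPM per kb. The ranges of the neighbours Tlr8 and Tlr4, Tlr1 and Tlr9, and Tlr3 and Tlr6 overlapped in this group. Peritoneal WT macrophages had another order, with Tlr13 at 121, Tlr2 at 34.0, Tlr4 at 25.5, Tlr7 at 22.8, Tlr8 at 14.2, Tlr6 at 7.11, Tlr1 at 2.85, Tlr3 at 2.64 and Tlr5 at 0.0982 CPM per kb, while Tlr9 had no count in any WT peritoneal library. The ranges of Tlr2, Tlr4, Tlr7 and Tlr8 overlapped one after the other there, as did those of Tlr1 and Tlr3. Peritoneal libraries and BMDMs were separate experiments and were not tested against each other.

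**Figure D1:**
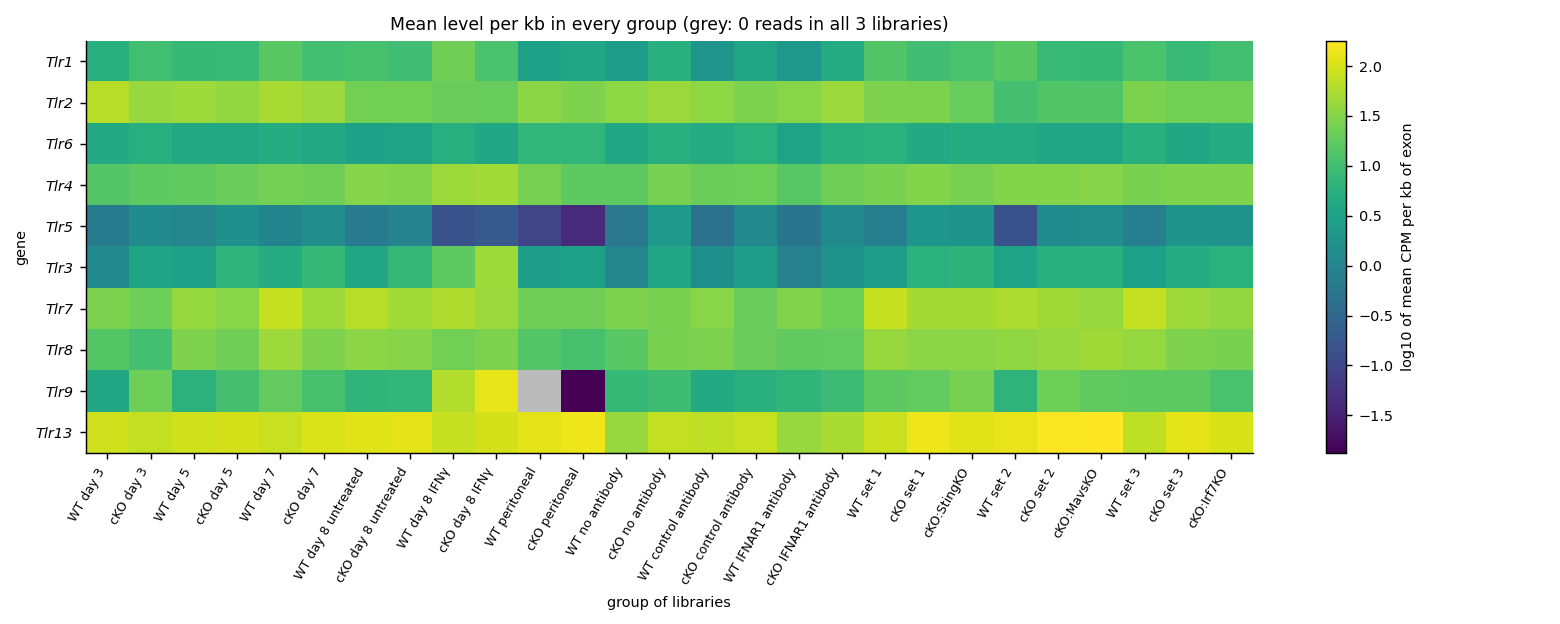
Colour map of the log10 mean level of each TLR gene (rows) in each of the 27 groups (columns), in CPM per kilobase of exon, from dark (low) to yellow (high), with grey for no count. Tlr13 is highest in 25 groups, Tlr5 lowest in 25, and Tlr9 goes from no count in WT peritoneal macrophages to 127 CPM per kb in IFNγ-treated cKO BMDMs.

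The time course asked how H3.3 loss acts while progenitors become macrophages. On day 3, before the cells were mature, Tlr9 and Tlr3 rose in cKO cells, and no other TLR gene passed the test. Tlr9, the receptor of unmethylated CpG DNA, was at 11.4, 12.6 and 17.8 CPM in the 3 WT libraries and at 91.3, 63.4 and 73.9 CPM in the cKO libraries. Every cKO library thus stood above every WT library, and the difference was 5.46-fold (log2 fold change 2.45, SE 0.55, edgeR quasi-likelihood test with Benjamini-Hochberg adjusted p = 0.0102). Tlr3, the receptor of double-stranded RNA, was at 7.36, 7.10 and 5.56 CPM in WT and 17, 13.8 and 22.9 CPM in cKO cells, again with no overlap (2.70-fold, log2 1.43, SE 0.41, adjusted p = 0.0379). These 2 of 10 genes stand beside 8.65% of all 15955 genes called (6.0% called higher), and the median log2 fold change of the 10 was 0.27, against 0.04 over all genes. The groups did not overlap for 6 of the 10 genes (Tlr1, Tlr3, Tlr4, Tlr6, Tlr9 and Tlr13), against 34.1% of all genes. Tlr9 lost the call without WT replicate 1 (adjusted p = 0.0545) or WT replicate 2 (0.0519), and Tlr3 without any 1 of the WT libraries or without cKO replicate 1 or 3 (adjusted p 0.0795 to 0.135).

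Replicate numbers paired the day 3 libraries, and with the number as a block the count of TLR genes called became 4. It added Tlr1 (log2 0.94, adjusted p = 0.0267), which pairs with TLR2, and Tlr5 (log2 0.90, adjusted p = 0.0437). Tlr1 was at 26.4, 16 and 11.8 CPM in WT and 47.6, 27.3 and 27.4 CPM in cKO cells. The lowest cKO library thus lay just above the highest WT library. Tlr2 spread most on day 3, since replicate 1 of both genotypes (397 CPM in WT, 224 CPM in cKO) stood far above the others (72.0 to 90.4 CPM). Tlr7 and Tlr8, receptors of single-stranded RNA, were lower in cKO by 0.30 and 0.50 on the log2 scale with overlapping groups, and did not pass.

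Other signals moved along with Tlr9 and Tlr3 on day 3. The reference list of interferon-stimulated genes had all 10 members called higher in cKO, with a median log2 fold change of 6.04 against 0.04 over all genes. Markers of B cells, which also express Tlr9, were higher in every cKO library than in any WT library, with Cd79a at 2.11 to 2.58 CPM in WT and 4.86 to 9.05 CPM in cKO, Cd79b at 4.16 to 5.11 and 8.62 to 18.4 CPM, and Ms4a1 at 0.750 to 1.12 and 2.39 to 5.09 CPM. The dendritic cell list summed to 51.8 to 100.1 CPM in WT and 248 to 392 CPM in cKO, nearly all of it Bst2, which interferon also raises, while Siglech stayed at or below 0.704 CPM. The neutrophil list summed to 1583 to 3038 CPM in WT and 2732 to 4205 CPM in cKO, and the peritoneal macrophage list to 14.1 to 39.6 and 67.8 to 103 CPM. The part of these cells in the Tlr9 and Tlr3 differences was not tested. Of 40 genes of the TLR pathway, 2 were called, both higher in cKO: Irf7, the factor that drives interferon genes downstream of TLR7 and TLR9 (log2 6.61), and Socs1, an inhibitor of cytokine signalling (log2 1.59).

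By day 5 and day 7 no TLR gene was called between cKO and WT cells, against 3.12% and 1.82% of all genes. At an unadjusted p under 0.05 edgeR gave 1 TLR gene on day 5 and 3 on day 7, and DESeq2 called 1 on day 5 and 0 on day 7. Tlr3 was at 19.7, 13.1 and 11.2 CPM in WT and 60.3, 19.4 and 21.2 CPM in cKO cells on day 5, where replicate 1 was the highest of each genotype (log2 1.19, SE 0.38, adjusted p = 0.126). On day 7 it was at 37.1, 16.8 and 19.8 CPM in WT and 43.1, 38.3 and 41.7 CPM in cKO cells, with no overlap (log2 0.74, SE 0.38, adjusted p = 0.340). The 3 genes with an unadjusted p under 0.05 on day 7 were Tlr7 (log2 -0.80, adjusted p = 0.166), Tlr8 (-0.63, 0.165) and Tlr13 (0.39, 0.168). Tlr7 was at 247, 453 and 246 CPM in WT against 159.9, 183 and 202 CPM in cKO cells, so that its groups stood apart, and WT replicate 2 was far above the others. The TLR pathway list had 2 genes called on day 5 (Irf7, log2 4.85, and Socs1, 1.81) and 0 on day 7, where 7 had an unadjusted p under 0.05. Of the interferon-stimulated reference genes 9 of 10 were called higher in cKO on day 5 (median log2 4.07) and 0 on day 7 (median 0.40, with 1 at an unadjusted p under 0.05 in edgeR).

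**Figure D2:**
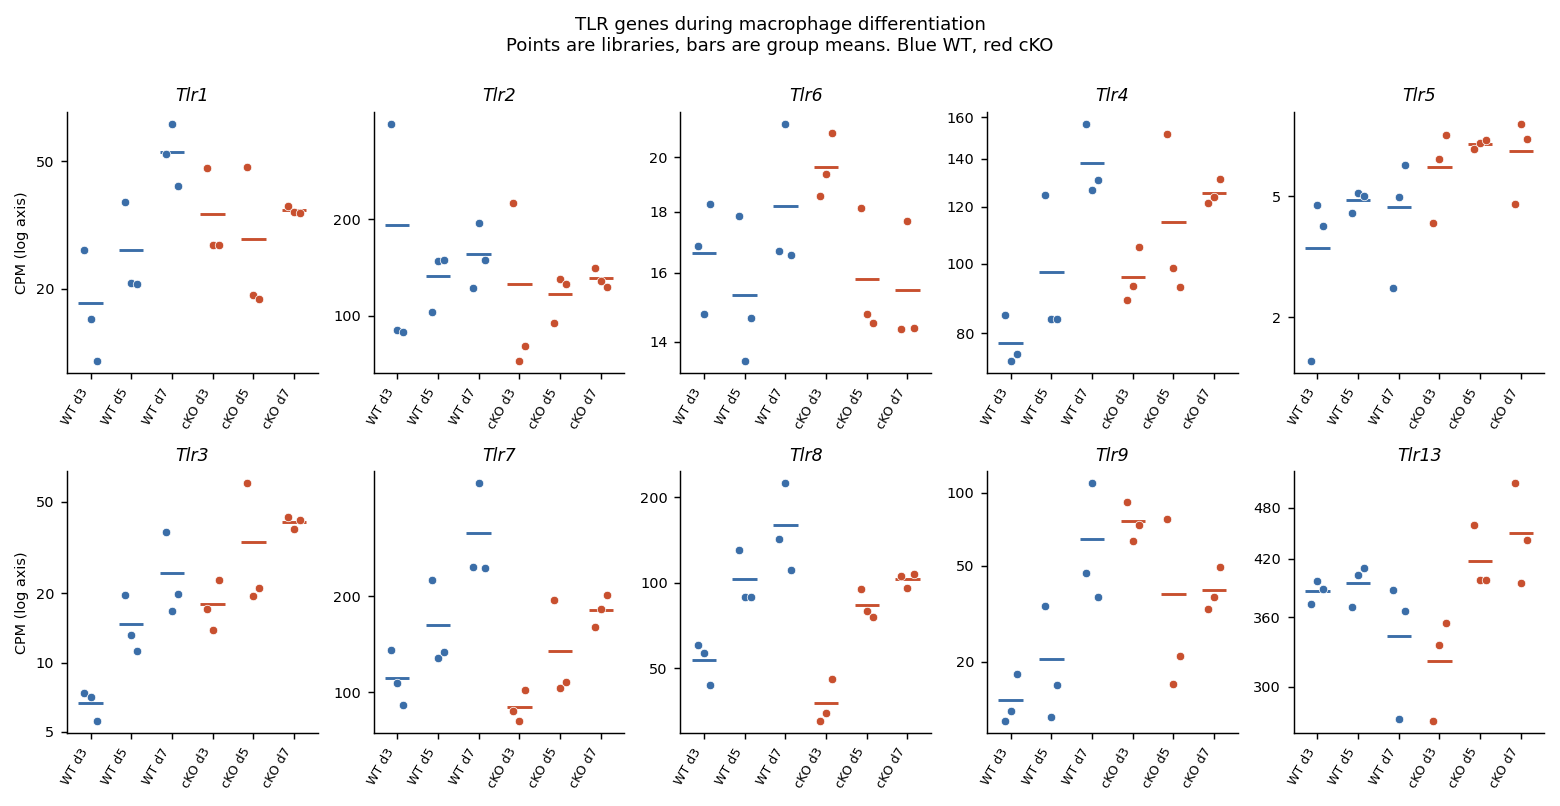
Level of each TLR gene in CPM (log scale) by day of culture (d3, d5, d7), WT on the left and cKO on the right of each panel, 1 point per library, with the mean of each group. On day 3 the cKO libraries lie above all WT libraries for Tlr9 (63.4 to 91.3 against 11.4 to 17.8 CPM) and Tlr3, while on day 7 the Tlr9 groups overlap.

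Over the days of culture TLR genes rose in both genotypes. From day 3 to day 7, 6 of 10 rose in WT cells (median log2 fold change over the 10 genes 1.17, against 0.05 over all genes), against 12.6% of all genes called higher and 24.5% called at all. They were Tlr9 (4.60-fold, log2 2.20, SE 0.55, adjusted p = 0.00992), Tlr3 (3.70-fold, log2 1.89), Tlr8 (2.98-fold, log2 1.58), Tlr1 (2.95-fold, log2 1.56), Tlr7 (2.84-fold, log2 1.5) and Tlr4, the lipopolysaccharide receptor (1.78-fold, log2 0.83). Without the high WT day 7 replicate 2 (109 CPM of Tlr9, against 46.5 and 37.0 CPM in the others), Tlr9 lost the call (log2 1.58, adjusted p = 0.0574). In cKO cells 4 rose, beside 6.49% of all genes called higher and 14.7% called at all: Tlr8 (log2 1.45, adjusted p = 0.000525), Tlr3 (1.19, 0.0464), Tlr7 (1.01, 0.0268) and Tlr13 (0.48, 0.0297). Leaving out 1 library at a time left 1 to 3 of these 4, and in each case Tlr8 was among them.

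Tlr9 had a mean of 13.9 ± 3.42 CPM on day 3 and 64.3 ± 39.3 CPM on day 7 in WT cells (SD, n = 3). In cKO cells the means were 76.2 ± 14.1 and 39.8 ± 8.58 CPM, a difference that did not pass (log2 -0.94, adjusted p = 0.250). The change of the cKO effect from day 3 to day 7, tested as an interaction, was -3.14 on the log2 scale for Tlr9 (SE 0.75, adjusted p = 0.0860), and no TLR gene passed, against 0.0439% of all genes. That result depended on the tool, as Tlr9 passed with DESeq2 (adjusted p = 0.00292) and with only these 4 groups in the model (0.0137), stayed at 0.0549 to 0.0928 under the other settings that kept all libraries, and had 0.0498 to 0.213 when 1 library was left out, the lowest without WT day 7 replicate 3. DESeq2 called 2 TLR genes in this test and edgeR gave 4 with an unadjusted p under 0.05. In the pathway list 12 genes were called from day 3 to day 7 in WT cells, 8 of them higher (Irf7 with log2 5.03, the inhibitory receptor Sigirr 1.24, the adaptor Ticam2 1.22 and the RP105 partner Ly86 1.18) and 4 lower (among them Lbp, which hands lipopolysaccharide to CD14, with -2.86, and the NF-κB inhibitor Tnfaip3, -1.53). In cKO cells 4 were called, Tab2 higher (0.48) and Lbp (-2.40), Socs1 (-1.34) and Tnfaip3 (-1.23) lower. The interferon-stimulated reference genes moved too, with all 10 called higher on day 7 than on day 3 in WT cells (median log2 4.62) and 0 of 10 called in cKO cells (median -0.07, none at an unadjusted p under 0.05 in edgeR). The neutrophil list went from 1583 to 3038 CPM on day 3 to 74.1 to 131 CPM on day 7 in WT cells alongside these changes, and their part in the TLR changes was not tested.

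IFNγ, the cytokine that activates macrophages, changed 4 of the 10 TLR genes in WT BMDMs, a share close to that of all genes called (38.9% of 13075). In WT BMDMs Tlr9 was at 18.7, 28.3 and 22.1 CPM untreated and at 195, 249 and 183 CPM after IFNγ, a 9.09-fold rise (log2 3.18, SE 0.21, adjusted p = 3.52e-06). Tlr3 went from 24.3, 17.6 and 17.4 CPM to 109.5, 93.0 and 62.3 CPM (4.47-fold, log2 2.16, SE 0.37, adjusted p = 0.00121). Tlr5, the flagellin receptor, fell from 4.83, 1.49 and 3.50 CPM to 1.18, 0.446 and 0.482 CPM (log2 -2.16, SE 0.49, adjusted p = 0.00620). Treated and untreated libraries did not overlap for any of these 3 genes. Tlr1 also rose, from 26.9, 51.0 and 34.4 CPM to 65.6, 94.5 and 71.4 CPM (log2 1.04, adjusted p = 0.0455), but lost the call without any 1 of 5 libraries (adjusted p 0.0695 to 0.165).

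These 4 of 10 TLR genes were called for IFNγ in WT cells beside 38.9% of all genes, and the groups did not overlap for 9 of 10, beside 62.0% of all genes. Replicate numbers paired these libraries, and the block added Tlr6 (log2 0.85, adjusted p = 0.0416), which pairs with TLR2. In cKO BMDMs Tlr9 went from 27.8 and 22.4 CPM to 384 and 501 CPM (17.6-fold, log2 4.14, SE 0.27, adjusted p = 7.79e-06). Tlr3 went from 39.9 and 38.8 CPM to 114 and 346 CPM (5.86-fold, log2 2.55, SE 0.45, adjusted p = 0.00210), and Tlr5 from 4.14 and 4.69 CPM to 0.604 and 1.18 CPM (log2 -2.09, adjusted p = 0.0288). The 2 treated cKO libraries stood far from each other for most TLR genes, replicate 1 being the lower: Tlr7 was at 35.6 and 317 CPM, Tlr8 at 32.0 and 168 CPM and Tlr1 at 18.7 and 60.1 CPM. Replicate 1 also differed in its markers, with 349 CPM of the stromal list against 54.6 CPM in replicate 2 (8.36 to 49.6 CPM in treated WT libraries), 2482 against 4930 CPM of the macrophage list and 1346 against 596 CPM of the dendritic cell list, and the part of this in its TLR levels was not tested. These 3 calls stood beside 33.9% of all genes. Without replicate 1 Tlr4 had log2 1.19, Tlr7 0.72 and Tlr8 0.56, of which Tlr7 and Tlr8 turned direction. Tlr9 (log2 4.34) and Tlr3 (log2 3.16) kept direction without it, as they did without replicate 2 (log2 3.90 and 1.5). Tlr5 had log2 -1.86 (adjusted p = 0.04998) without replicate 1, and lost its call without treated replicate 2 or without either untreated cKO library (adjusted p 0.0807 to 0.144).

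**Figure D3:**
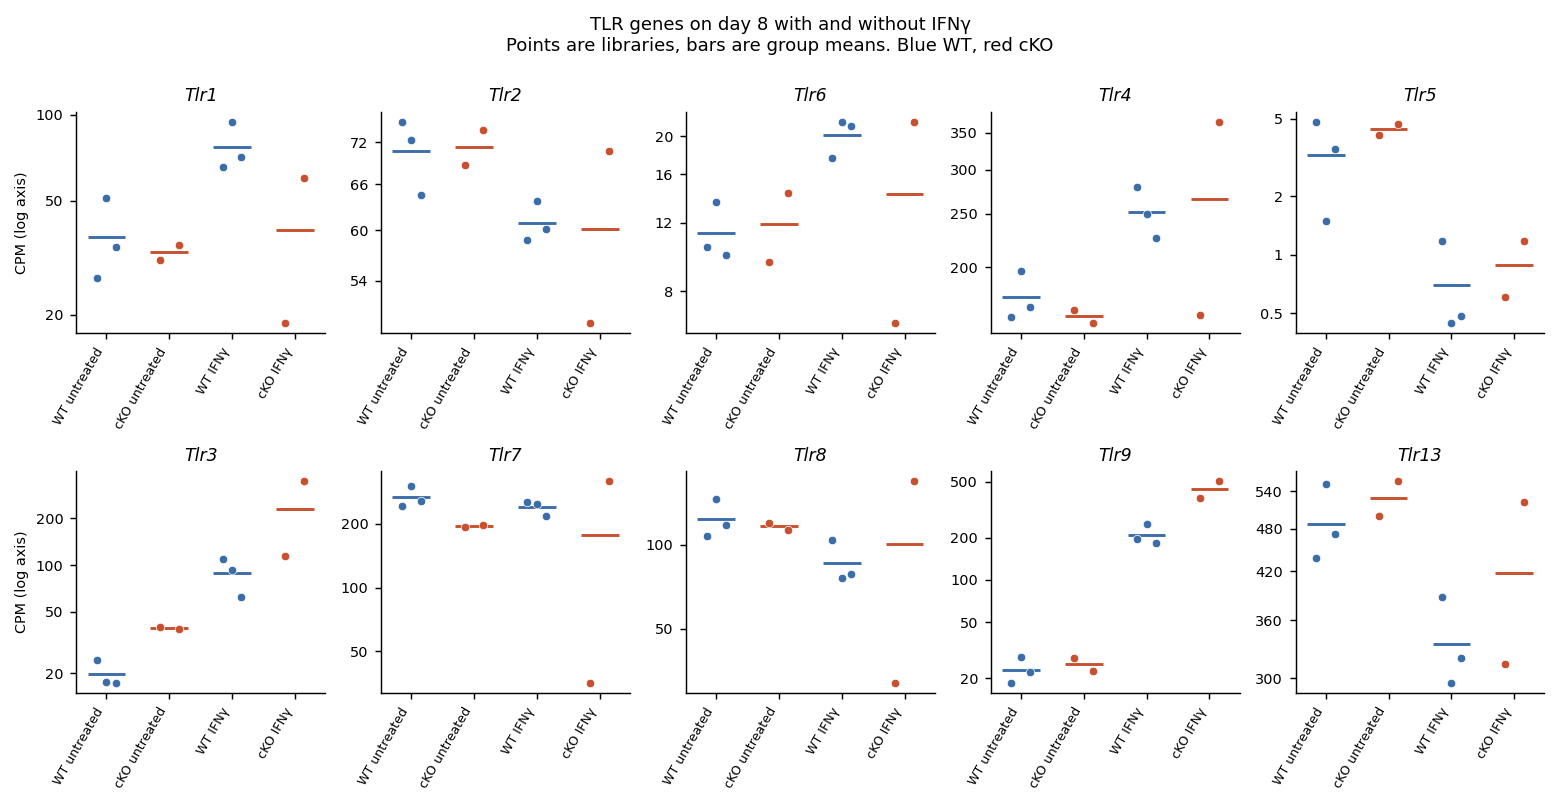
Level of each TLR gene in CPM (log scale) in WT and cKO BMDMs on day 8, untreated or after IFNγ, 1 point per library and the mean of each group. Tlr9 and Tlr3 lie higher after IFNγ in both genotypes and Tlr5 lower, with no overlap, and the 2 treated cKO libraries are far apart for Tlr7 (35.6 and 317 CPM).

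The IFNγ response did not differ detectably between genotypes for any TLR gene, nor for any other gene (0.0% of 13075 called). For Tlr9 the difference of the responses was 0.96 on the log2 scale (SE 0.31, adjusted p = 0.478), and it was the single TLR gene with an unadjusted p under 0.05. DESeq2 called 0 TLR genes here. Without cKO IFNγ replicate 1 the difference for Tlr9 was 1.18. After IFNγ, Tlr9 was higher in cKO than in WT BMDMs by 2.12-fold (log2 1.08, SE 0.21, adjusted p = 0.0216, 1 of 10 TLR genes, beside 5.48% of all genes), with both cKO libraries above all 3 WT libraries. That call was lost with only the groups compared (adjusted p = 0.146), with a replicate block (0.0698) and without WT replicate 1 (0.0723) or 3 (0.103). Without cKO replicate 1 Tlr9 was at log2 1.29, Tlr3 at 2.0 and Tlr8 at 0.99. In that setting Tlr5 was at 0.69, Tlr13 at 0.67, Tlr4 at 0.57 and Tlr7 at 0.43. Tlr2 was at 0.24, Tlr6 at 0.14 and Tlr1 at -0.33 there. Without cKO replicate 2 Tlr7 was at log2 -2.78 and Tlr8 at -1.45, so the direction of Tlr8 depended on which treated cKO library was kept. Untreated day 8 BMDMs had no TLR gene called, beside 0.658% of all genes, with 1 TLR gene at an unadjusted p under 0.05 and 0 called by DESeq2. That gene was Tlr3, at 24.3, 17.6 and 17.4 CPM in WT and 39.9 and 38.8 CPM in cKO cells, which did not overlap (log2 0.99, SE 0.39, adjusted p = 0.679).

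Genes of the TLR pathway were also called after IFNγ in both genotypes. Of 38 tested genes 19 were called in WT cells (15 higher) and 18 in cKO cells (14 higher). The median log2 fold change of the list in cKO cells was 0.33. It was 0.57 without treated cKO replicate 1, a setting added for this list after the data were seen. The largest changes in WT cells were Socs1 (log2 6.99), Irf7 (3.56), the lipopolysaccharide co-receptor Cd14 (-2.20), Ly86 (2.10), Tnfaip3 (1.84) and Myd88 (1.62). In cKO cells, with both treated libraries, they were Socs1 (6.55), Irf7 (3.12), Cd14 (-1.79), the kinase Irak2 (1.65), Myd88 (1.55) and Tnfaip3 (1.51). The dendritic cell list, mostly Bst2, summed to 82.5 to 149.6 CPM in untreated libraries of both genotypes, to 359 to 391 CPM in treated WT and to 596 to 1346 CPM in treated cKO libraries. Clec9a, one of its members, was at 44.4 to 66.8 CPM in treated WT and 21.1 to 31.0 CPM in treated cKO libraries and at most 0.406 CPM in untreated ones, while Siglech had no count in any of them and Flt3 at most 0.604 CPM. The part of such cells in the Tlr9 rise was not tested.

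Peritoneal macrophages, taken from the mouse without culture, had no TLR gene called between cKO and WT, beside 1.06% of all genes, and DESeq2 called 0. Tlr13 was at 401, 545 and 616 CPM in WT and 734, 554 and 541 CPM in cKO cells, Tlr2 at 89.1, 118 and 100.2 CPM and at 84.8, 85.0 and 93.0 CPM, and Tlr3 at 13.2, 14.9 and 13.1 CPM and at 12.8, 17.7 and 16.4 CPM. WT and cKO libraries overlapped for each of the 8 TLR genes tested, while over all genes the groups stood apart for 15%. Tlr4 was at 90.9, 181 and 153 CPM in WT and 94.9, 86.7 and 105 CPM in cKO cells (log2 -0.57, SE 0.24, adjusted p = 0.493), and passed only without WT replicate 1 (log2 -0.81, adjusted p = 0.0456). Tlr5 (0.130 to 0.820 CPM) and Tlr9 (0 to 0.0856 CPM) were too low to be tested. In the pathway list Irf7 was the 1 gene called of 39 (log2 1.86), and 5 of 9 interferon-stimulated reference genes were called higher, with a median log2 fold change of 1.45.

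The antibody arms asked whether blocking IFNAR1 changes expression in cKO cells. Several libraries stood apart here, all in groups without the control antibody. Tlr13 was at 338, 51.8 and 147 CPM in WT cells without antibody and 184, 33.0 and 316 CPM in WT cells with the IFNAR1 antibody, and at 312, 327 and 294 CPM in WT cells with the control antibody. The low WT libraries were replicates 2 and 3 without antibody and replicates 1 and 2 with the IFNAR1 antibody, and of cKO cells replicate 1 with the IFNAR1 antibody (146 CPM against 274 and 273 CPM). Tlr3, Tlr4, Tlr5, Tlr7 and Tlr8 were lowest in the same 2 WT libraries as Tlr13, while Tlr9 was not, with 23.2 and 22.9 CPM there. Their macrophage marker sums, 2968 to 4301 CPM over these WT groups, were as high as in the other arms.

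No TLR gene was called between cKO and WT cells without antibody (beside 8.16% of all genes), with the control antibody (5.11%) or with the IFNAR1 antibody (0.698%). At an unadjusted p under 0.05 edgeR gave 4, 2 and 2 TLR genes, and DESeq2 called 2, 0 and 0. The shares just given are for the edgeR adjusted p alone. The largest differences without antibody were those of Tlr5, at 5.63, 0.753 and 2.13 CPM in WT and 10.3, 11.6 and 9.53 CPM in cKO cells (log2 1.90, SE 0.60, adjusted p = 0.0607), and Tlr3, at 10.5, 1.46 and 3.49 CPM and 20.9, 19.3 and 14.9 CPM (log2 1.84, SE 0.60, adjusted p = 0.0697). The groups stood apart for both, and without WT replicate 1 both passed (log2 2.87 and 2.90), together with Tlr1 (1.81) and Tlr8 (1.44). With the IFNAR1 antibody, Tlr1 (log2 1.65) and Tlr6 (0.98) passed without WT replicate 3. With the control antibody, where WT libraries lay close together, Tlr5 was at 2.31, 2.38 and 2.29 CPM in WT and 7.77, 5.24 and 4.98 CPM in cKO cells (log2 1.43, adjusted p = 0.300). The WT and cKO libraries of this arm did not overlap for 7 of 10 TLR genes, beside 36.7% of all genes. When the model held only the 6 libraries of this arm, so that the scattered arms no longer set the spread, 7 TLR genes passed: Tlr5 (log2 1.52), Tlr1 (0.96), Tlr3 (0.86) and Tlr6 (0.34) higher, and Tlr7 (-0.69), Tlr2 (-0.38) and Tlr8 (-0.38) lower in cKO cells (adjusted p 0.000215 to 0.0456), beside 24.2% of all genes in that model. The peritoneal macrophage list summed to 52.7 to 90.8 CPM in the WT and 122 to 166 CPM in the cKO libraries of this arm, and its part was not tested.

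Between the IFNAR1 and the control antibody no TLR gene was called in WT cells (11.2% of all genes were) or in cKO cells (4.68%). Tlr9 came nearest in both, with 19.4, 14.7 and 11.7 CPM under the control antibody and 26.7, 22.9 and 21.1 CPM under the IFNAR1 antibody in WT cells (log2 0.62, SE 0.23, adjusted p = 0.0750). In cKO cells it was at 19.5, 20.4 and 17.3 CPM and at 33.7, 30.7 and 29.6 CPM (log2 0.72, SE 0.23, adjusted p = 0.0840). Every IFNAR1 library was above every control library in both genotypes, Tlr9 was the 1 TLR gene with an unadjusted p under 0.05 in each, and DESeq2 called it in each. Without WT IFNAR1 replicate 3 the WT comparison had 4 TLR genes called. Both comparisons, however, use the control antibody libraries, and Tlr9 was lower there than without antibody too: in WT cells it was at 38.5, 23.2 and 20.8 CPM without antibody (log2 -0.84 for control against none, SE 0.23, adjusted p = 0.0306, 1 TLR gene, beside 9.74% of all genes). That call was lost without WT no antibody replicate 1 (adjusted p = 0.0782) or WT control replicate 2 or 3 (0.125 in both). In cKO cells Tlr9 was at 35.0, 36.5 and 25.7 CPM without antibody (log2 -0.77, adjusted p = 0.0986, with no TLR gene called beside 2.09% of all genes, and 1 by DESeq2). The change of the cKO effect with IFNAR1 blocking was called for no TLR gene and no other gene (0.0% of 17191), with no TLR gene at an unadjusted p under 0.05 in edgeR and none by DESeq2. Over the interferon-stimulated reference genes the IFNAR1 antibody had a median log2 fold change of 0.36 in WT and -0.04 in cKO cells against the control, with 0 and 2 genes called. All 10 of these genes were themselves lower with the control antibody than without antibody in both genotypes. The median log2 fold change was -1.69 in WT (4 called) and -0.96 in cKO cells (2 called). The IFNAR1 antibody was not tested against no antibody here.

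Of 39 pathway genes tested, Irf7 was called higher in cKO cells in each arm (log2 3.51, 4.38 and 3.24). It was joined by the transporter gene Slc15a3 without antibody (0.99) and with the control antibody (1.62). Without antibody Tnfaip3 (-0.91) and the adaptor Pik3ap1 (0.56) were called too. Under the IFNAR1 antibody 7 pathway genes were called in WT cells against the control, Sigirr (2.17), Ly86 (1.69), Lbp (1.19), Ticam1 (1.15) and the TLR chaperone Hsp90b1 (1.15) higher and Ctss, a protease that processes endosomal TLRs, lower (-1.04). In cKO cells 4 were called, Sigirr (1.67) and Ticam2 (0.99) higher and Ctss (-1.21) and Slc15a3 (-0.83) lower.

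The 3 sets of BMDMs were the deepest libraries (21504555 to 45581528 counts), and TLR genes split there into a group that was higher and a group that was lower in cKO cells. Set 1 had 6 TLR genes called, set 2 had 7 and set 3 had 7, beside 34.6%, 21.9% and 35.9% of all genes. Sets 1 and 3 are not 2 clearly separate experiments: same-numbered libraries deviated together from their group means (r 0.215 to 0.723 for the 3 WT pairs and 0.226 to 0.546 for the cKO pairs, over 8205 genes), which the labels do not account for, so that a result found in both may not be an independent repeat. Of the 10 interferon-stimulated reference genes 7, 8 and 7 were called higher in cKO cells in sets 1, 2 and 3 (median log2 1.25, 1.32 and 0.99). The part of this signal in the TLR differences was not tested. Markers of cell types moved with genotype in the sets as well. The neutrophil list summed to 59.3 to 110.2 CPM in WT and 196 to 281 CPM in cKO cells of set 1 and to 66.5 to 120.3 and 194 to 319 CPM in set 3, and overlapped in set 2 (101 to 176 and 151 to 169 CPM). The dendritic cell list was higher in every cKO library in sets 1 and 3 (117 to 204 and 212 to 284 CPM, 115 to 170.1 and 174 to 242 CPM) and lower in set 2 (217 to 228 and 145 to 196 CPM). In set 3 the peritoneal macrophage list was at 26.97 to 60.5 and 88.3 to 130.3 CPM and the stromal list at 10.7 to 15.3 and 23.1 to 33.0 CPM. The B cell gene Ms4a1 was at 0.0625 to 0.130 and 0.688 to 1.63 CPM in set 1 and at 0 to 0.212 and 0.616 to 1.52 CPM in set 3. The part of these cells in the TLR differences was not tested.

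Tlr3, Tlr5 and Tlr13 were called higher in cKO cells in each set. Tlr5 was at 3.86, 4.03 and 3.55 CPM in WT and 10.1, 9.08 and 9.06 CPM in cKO cells of set 1 (2.46-fold, log2 1.30, SE 0.16, adjusted p = 1.58e-06). In set 2 it was at 0.682, 0.875 and 0.530 CPM and 5.76, 7.27 and 6.02 CPM (8.90-fold, log2 3.15, SE 0.21, adjusted p = 5.14e-11), and in set 3 at 4.05, 4.05 and 3.13 CPM and 9.30, 8.34 and 9.06 CPM (2.36-fold, log2 1.24, SE 0.16, adjusted p = 2.16e-06). The larger fold in set 2 went with a lower WT level there, while the cKO levels of the 3 sets lay between 5.76 and 10.1 CPM. Tlr3 was at 18.3, 15.3 and 9.71 CPM in WT and 27.9, 29.7 and 32.4 CPM in cKO cells of set 1 (log2 1.05, SE 0.15, adjusted p = 8.52e-06), with log2 0.78 in set 2 and 0.77 in set 3. Tlr13 was at 374, 388 and 339 CPM in WT and 579, 645 and 625 CPM in cKO cells of set 1 (log2 0.75, SE 0.10, adjusted p = 4.51e-06), with log2 0.39 in set 2, where the call was lost without WT or cKO replicate 1, and 0.75 in set 3. WT and cKO libraries did not overlap in any set for these 3 genes, though the share of all genes that stood apart in the sets is not given here.

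Tlr1, Tlr6 and Tlr7 were called lower in cKO cells in each set. Tlr7 was at 363, 324 and 281 CPM in WT and 209, 216 and 184 CPM in cKO cells of set 1 (log2 -0.67, SE 0.10, adjusted p = 2.38e-05), at 231, 239 and 221 CPM and 189, 205 and 166 CPM in set 2 (log2 -0.31, adjusted p = 0.0357) and at 334, 279 and 311 CPM and 188, 176 and 182 CPM in set 3 (log2 -0.76, adjusted p = 4.16e-06). Tlr1 had log2 fold changes of -0.45, -0.94 and -0.54 in sets 1, 2 and 3, with the highest level in WT set 2 (48.3, 55.9 and 51.1 CPM, against 25.9, 32.5 and 22.4 CPM in cKO cells). Tlr6 had -0.38, -0.32 and -0.48. The set 2 calls of Tlr6 and Tlr7 were lost without most single libraries (adjusted p up to 0.115 and 0.193), and that of Tlr6 in set 1 without WT replicate 1 or cKO replicate 2. Tlr8 was called lower in set 3 alone (log2 -0.52, adjusted p = 0.0255), where WT replicate 1 was at 198 CPM against 109 and 129 CPM, and without it the log2 fold change was -0.23 (adjusted p = 0.320). The Tlr8 call was also lost without any 1 of the cKO libraries (0.0509 to 0.0759).

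Tlr9 differed between cKO and WT cells in set 2, at 23.5, 24.2 and 20.3 CPM in WT and 68.5, 89.2 and 68.6 CPM in cKO cells (3.32-fold, log2 1.73, SE 0.28, adjusted p = 4.69e-05). It was not called in set 1, at 81.1, 39.7 and 53.2 CPM and 77.1, 60.1 and 55.5 CPM (log2 0.15), nor in set 3, at 99.6, 34.8 and 43.2 CPM and 63.1, 56.8 and 48.8 CPM (log2 -0.08). The WT levels set the sets apart, with each set 2 WT library below every WT library of sets 1 and 3, and the difference between the sets was not tested. Genes of B cells, which also express Tlr9, differed in set 2, with Cd79b at 2.68 to 3.57 CPM in WT and 8.57 to 11.3 CPM in cKO cells. Cd79a was at 0.530 to 0.681 and 0.822 to 1.15 CPM, while Ms4a1 overlapped (0.166 to 0.778 and 0.316 to 0.867 CPM). The B cell list summed to 4.12 to 6.08 CPM in WT and 12.5 to 14.7 CPM in cKO cells of set 2. It also stood apart where Tlr9 was not called, in set 1 (2.69 to 6.90 and 7.86 to 10.6 CPM) and set 3 (2.77 to 5.47 and 5.90 to 12.8 CPM). The part of these cells was not tested. Tlr2 and Tlr4 were called in no set. The pathway list of 40 genes had 23, 17 and 23 genes called, with Irf7 higher in each (log2 2.44, 1.45 and 2.36). Slc15a3 (1.32 and 1.22) and Ticam2 (-1.04 and -1.10) led in sets 1 and 3, and Sigirr (1.79), Tnfaip3 (-1.21), Lbp (1.18) and Hsp90b1 (-0.94) in set 2.

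**Figure D4:**
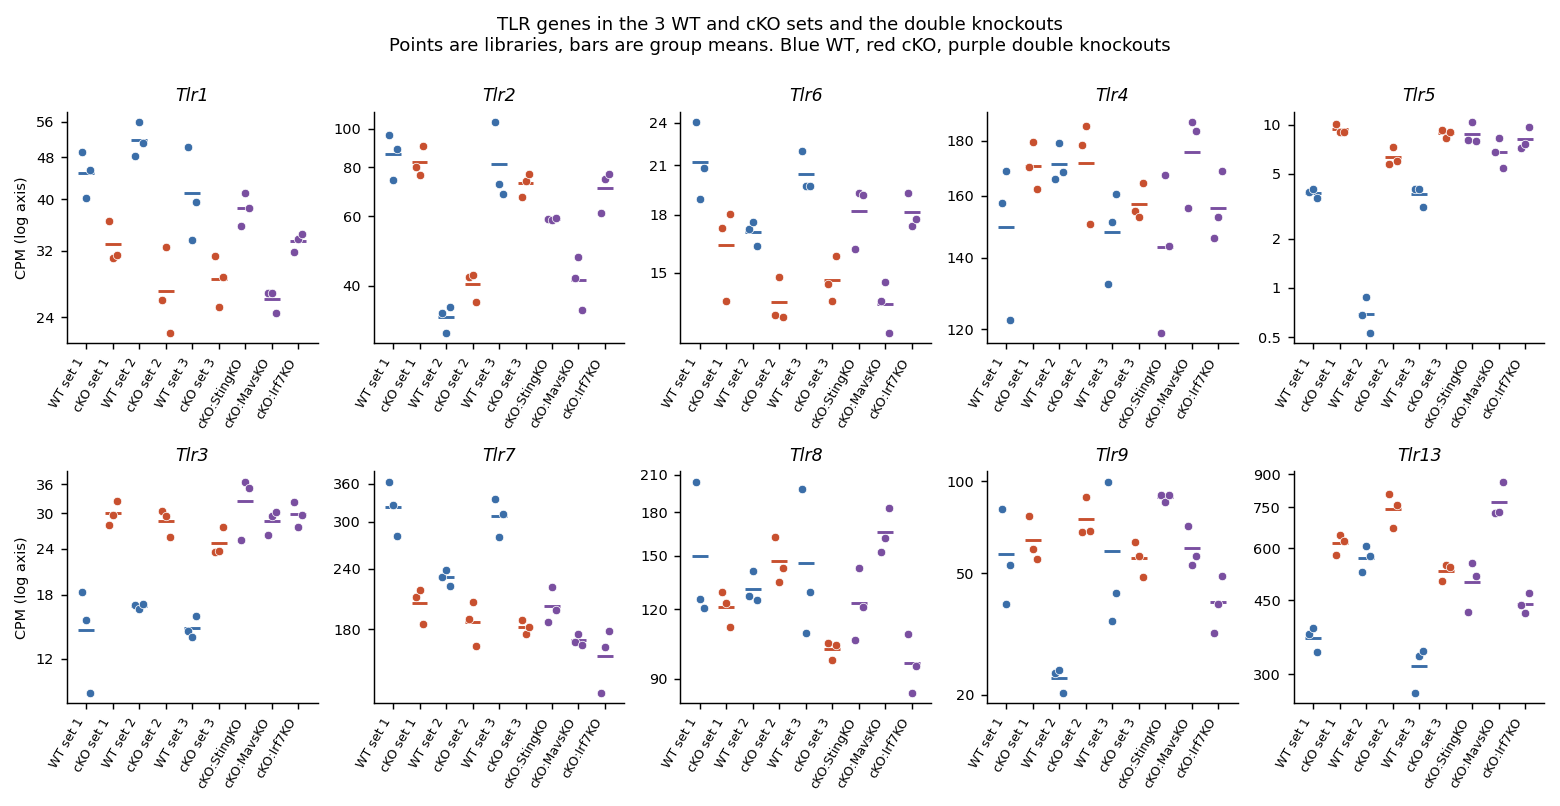
Level of each TLR gene in CPM (log scale) in WT and cKO BMDMs of sets 1 to 3 and in the double knockouts, 1 point per library and the mean of each group. Tlr5 is higher in cKO than in WT cells in each set (5.76 to 10.1 against 0.530 to 4.05 CPM), Tlr7 is lower, and the Tlr9 groups stand apart in set 2 but overlap in sets 1 and 3.

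The double knockouts asked whether STING, MAVS or IRF7, which act in sensing of nucleic acids and in interferon production, carry the cKO effect. Each was compared with the mean of the 3 cKO sets, whose 9 libraries entered as independent although those of sets 1 and 3 deviate together. Tmem173, which encodes STING, was at 5.52 ± 0.549 CPM in the libraries labelled cKO:StingKO against 78.7 ± 7.74 CPM in cKO cells (log2 -3.83), and Irf7 at 106 ± 7.13 against 353 ± 73.6 CPM (log2 -1.73) in those labelled cKO:Irf7KO. Mavs, the adaptor of cytosolic RNA sensors, was lower by only 0.26 on the log2 scale in the libraries labelled cKO:MavsKO (37.5 against 45.3 CPM, adjusted p = 0.00414), so the gene count alone is a weak check of that label. H3f3a and H3f3b were also lower in the cKO:Irf7KO libraries than in the cKO sets (log2 -0.91 and -0.73).

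The cKO:StingKO libraries had 3 TLR genes called, beside 36.4% of all genes: Tlr1 (log2 0.39, adjusted p = 0.00454) and Tlr6 (0.29, 0.0105) higher and Tlr13 (-0.33, 0.00417) lower than in the cKO sets. The cKO:MavsKO libraries had 3 (9.32% of all genes), Tlr2 (-0.59, 0.00119) lower and Tlr8 (0.44, 0.0477) and Tlr13 (0.31, 0.0166) higher. The cKO:Irf7KO libraries had 2 (10.6% of all genes), Tlr6 (0.29, 0.0327) higher and Tlr13 (-0.50, 0.000515) lower. These counts depended on the reference, since the cKO sets differed among themselves: Tlr2 was at 80.1, 76.2 and 90.4 CPM in set 1, 42.1, 42.6 and 36.4 CPM in set 2 and 67.2, 73.9 and 76.9 CPM in set 3, with 41.9, 47.3 and 34.7 CPM in the cKO:MavsKO libraries. Against set 2 alone no TLR gene was called in cKO:MavsKO cells (Tlr2 log2 0.03, turning direction), and 5 were in cKO:StingKO and in cKO:Irf7KO cells. Against set 3 alone none was called in cKO:Irf7KO cells. In cKO:StingKO cells Tlr1 (adjusted p = 0.225) and Tlr6 (0.319) lost the call against set 1 alone, and Tlr13 (0.547) against set 3 alone. The Tlr8 call in cKO:MavsKO cells was lost without any 1 of 11 of the 12 libraries, and that of Tlr6 in cKO:Irf7KO cells without any 1 of 7. Tlr6 in cKO:StingKO cells lost it without cKO:StingKO replicate 2 or 3 (adjusted p = 0.0738 and 0.0780), Tlr13 there without replicate 1 (0.0734), and Tlr13 in cKO:MavsKO cells without cKO:MavsKO replicate 3 (0.208). The stromal list summed to 163 to 200.4 CPM in cKO:StingKO and 81.2 to 289 CPM in cKO:MavsKO libraries against 23.1 to 69.3 CPM in the cKO sets. The neutrophil list was at 84.4 to 114.8 CPM in cKO:Irf7KO and 57.0 to 118 CPM in cKO:MavsKO libraries against 151 to 319 CPM there. In cKO:Irf7KO libraries the B cell list was at 3.68 to 5.61 CPM (5.90 to 14.7 CPM in the cKO sets). Their macrophage list was at 3385 to 3700 CPM (3830 to 4931 CPM in the cKO sets). In cKO:StingKO libraries the dendritic cell list was at 350 to 412 CPM (145 to 284 CPM in the cKO sets). The part of these lists in the TLR differences was not tested.

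Tlr3 and Tlr5, which were higher in cKO than in WT cells in each set, were called in none of the 3 double knockouts against the mean of the cKO sets. Against single sets Tlr5 was called in cKO:StingKO cells with set 2 (log2 0.47, adjusted p = 0.0179) and in cKO:MavsKO cells with set 1 (-0.46, 0.0405). Tlr3 was called in cKO:StingKO cells with set 3 (0.38, 0.0492) and without cKO:StingKO replicate 1 (adjusted p = 0.0303). Tlr5 was at 8.05, 10.3 and 7.92 CPM in cKO:StingKO, 6.77, 8.28 and 5.42 CPM in cKO:MavsKO and 7.16, 7.62 and 9.67 CPM in cKO:Irf7KO libraries, all above the 0.530 to 4.05 CPM of WT cells in the sets and beside 5.76 to 10.1 CPM in the cKO sets. Tlr3 was at 25.4, 36.6 and 35.3 CPM, 26.2, 29.5 and 30.3 CPM, and 32.2, 27.6 and 29.7 CPM in the same order, while WT libraries of the sets reached at most 18.3 CPM. Tlr9 was at 90.4, 85.5 and 90.1 CPM in cKO:StingKO, 71.3, 53.0 and 57.0 CPM in cKO:MavsKO and 32.0, 39.6 and 49.0 CPM in cKO:Irf7KO libraries, against 48.8 to 89.2 CPM in the cKO sets (cKO:Irf7KO log2 -0.69, SE 0.23, adjusted p = 0.0542). Double knockouts were not tested against WT cells. Against the cKO sets, 5 of 10 interferon-stimulated reference genes were called higher in cKO:StingKO (median log2 0.54) and 3 in cKO:Irf7KO cells (0.41). In cKO:MavsKO cells 0 were called (median -0.11). In the pathway list 23 genes were called in cKO:StingKO (Irf7 log2 1.08, the protease Lgmn 0.86 and the scavenger receptor Cd36 -0.85 among them), 3 in cKO:MavsKO (Pik3ap1 0.67, Cd36 0.60 and Myd88 0.25) and 11 in cKO:Irf7KO libraries (Irf7 -1.73, Pik3ap1 -0.72 and the factor Irf5 -0.51 the largest).

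Side by side over the 12 comparisons of cKO with WT cells, 2 TLR genes were higher in cKO wherever they were tested and 1 was lower. Tlr3 was higher in 12 of 12 (log2 0.18 to 1.84, median 0.95, called in 4), Tlr5 in 11 of 11 (0.43 to 3.15, median 1.17, called in 3) and Tlr7 lower in 12 of 12 (-0.80 to -0.01, median -0.44, called in 3). Under the alternative settings and with any 1 library left out, Tlr3 took no other sign, while Tlr5 turned in the IFNγ comparison without cKO replicate 2 (-0.31). Tlr7 was less firm, as it turned in 4 of its 12 comparisons (day 5 without WT replicate 1, 0.05, after IFNγ without cKO replicate 1, 0.43, and without antibody and in peritoneal cells under several settings, at most 0.41 and 0.30). Tlr13 was higher in 11 of 12, with day 3 as the exception, and Tlr9 in 9 of 11, with day 7 and set 3 as the exceptions. Tlr9 turned in 4 of its comparisons when 1 library was left out (day 5, untreated day 8, set 1 and set 3, from -0.13 to 0.53), and Tlr13 in 2 (after IFNγ and with the IFNAR1 antibody, both -0.12). Tlr1 and Tlr6 were higher in 6 and lower in 6 of 12 each, both higher on days 3 and 5 and in the antibody arms and both lower on day 7, after IFNγ and in the sets. Tlr8 was lower in 8 of 12. Tlr2 was lower in 8 and Tlr4 higher in 9, and neither was called in any. Sets 1 and 3 are listed as separate comparisons in these counts though they may not be independent. The labels do not say whether the 12 comparisons use cells of different animals, and the signs were not tested together. The share of all genes that kept 1 sign throughout is not given here, so these counts do not show whether a constant sign is unusual.

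**Figure D5:**
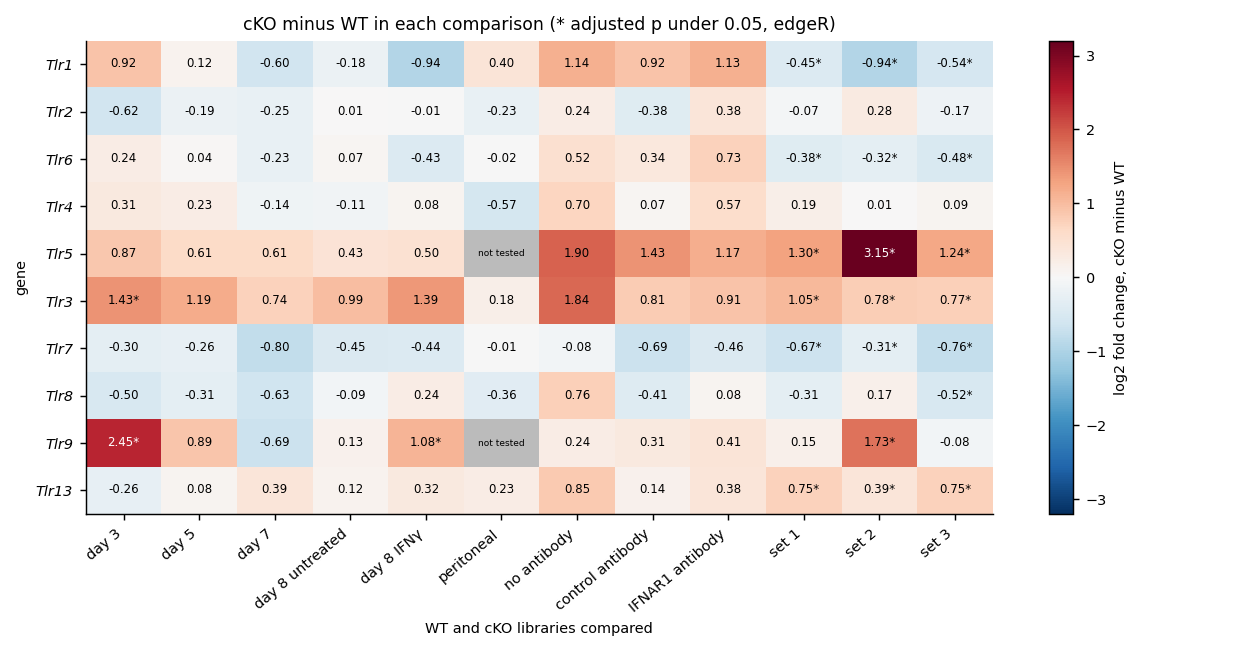
Colour map of the log2 fold change of cKO against WT cells for each TLR gene (rows) in the 12 comparisons (columns), red where higher and blue where lower in cKO, with the value printed in each cell and a star where the edgeR adjusted p passed. Tlr3 and Tlr5 are above 0 and Tlr7 below 0 wherever they were tested, while Tlr1 and Tlr6 take both signs.

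Genes with a pattern like that of a TLR gene were ranked by Pearson's r of log2 CPM over the 18 time course libraries, among 8953 genes, and r over the 18 antibody libraries was set beside it. Both are descriptions, as the points share libraries, days and depth. For Tlr3 the nearest were Tor1aip1 (r = 0.972, and 0.847 in the antibody libraries), Tpst1 (0.961 and 0.71) and Sp110 (0.959 and 0.531). Synj1 was nearest to Tlr4 (0.931 and 0.939), and Traf3ip3 (0.88 and 0.91) and Sh2d1b1 (0.866 and 0.801) to Tlr5. Near Tlr9 stood Il3ra (0.946), Ndrg1 (0.943) and Idua (0.941), with r of 0.468, 0.31 and 0.145 in the antibody libraries. For Tlr7 the r of the nearest gene, Dhrs3, was 0.977 in the time course and -0.336 in the antibody libraries, and for Tlr1 that of Lacc1 0.95 and -0.431. Nfkb1 stood nearest to Tlr2 (0.856 and 0.593), Mtm1 to Tlr6 (0.874 and 0.436), Dennd6a to Tlr8 (0.96 and 0.574) and L1cam to Tlr13 (0.876 and 0.737). Among the TLR genes themselves, the neighbours Tlr7 and Tlr8 had r = 0.918 in the time course and 0.733 in the antibody libraries.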

How the data were processed

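RNA-seq of mouse BMDMs and peritoneal macrophages was read from the gene counts deposited by the authors, 1 STAR table per library. Reads had been trimmed with Cutadapt and aligned to mm10 per the labels (versions not given in the sources used here). The labels give ribosomal RNA depletion for all libraries, while the study's methods give SMART-Seq v4 for peritoneal cells, and the methods also name RSEM, whose output was not used here. The unstranded count column was used, since the libraries were not stranded. The summary lines that name no gene were kept out of library sizes.

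The members and gene lists were chosen with earlier results of these data known. Each experiment was tested on the genes listed in all of its tables (18 time course, 10 day 8, 6 peritoneal, 18 antibody and 27 set libraries). The tests used edgeR 4.0.16 (R 4.3.3, quasi-likelihood fit and F test), after filterByExpr (minimum count 10, total 15) and TMM scaling. Each model had 1 term per group, with Benjamini-Hochberg adjustment over all genes tested (12361 to 18083). Calls are adjusted p-values below 0.05, and SE is the log2 fold change over the root of F. Counts of TLR genes by an unadjusted p or by DESeq2 are given without the share of all genes under that rule. Levels are TMM-scaled CPM, and a group was called apart when no library overlapped the other group. Of the pathway list at most 6 genes called are named per comparison, largest first, and for like patterns the 3 genes with the highest r over the time course, taken from genes whose log2 CPM averaged at least 3. The labels call the libraries biological replicates, and p-values measure the spread between these samples. No pair of libraries agreed within sampling noise. Counting error is smallest in the sets (21504555 counts or more) and largest on day 8 (3614967 to 9879339).

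Samples with the same replicate number deviated together (every pair's correlation over 0.1) for cKO against WT on day 3 (0.126 to 0.419), day 7 (0.153 to 0.467), in peritoneal cells (0.144 to 0.194), for day 7 against day 3 in cKO (0.138 to 0.415), IFNγ in WT (0.335 to 0.451) and control against no antibody in WT (0.145 to 0.284). Alternatives were DESeq2 1.42.0, other scaling, filters and strand columns, a replicate block, only the groups compared, single cKO sets, an older edgeR method and leaving out each library. The tests were tried on simulated data first. A marker gene and a promoter motif that were also computed are not reported here.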

Additional observations from a re-analysis of the deposited data

Results flagged for a closer look

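Tlr11 and Tlr12, receptors of protozoan profilin that are outside the 10 genes described, had no count in any untreated day 8 library and were present after IFNγ, above the level of the controls. Tlr12 had 311, 266 and 334 counts in the 3 treated WT libraries (mean 37.7 CPM) and 72 and 179 counts in the treated cKO libraries (mean 32.3 CPM). Tlr11 had 17, 13 and 24 counts in treated WT libraries (mean 2.22 CPM) and 1 and 12 counts in treated cKO libraries (mean 1.01 CPM). No fold change is given against a group at 0.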

How the results depend on the processing

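Of 49 TLR results called, 24 were called under each alternative tried, and 337 of 401 alternative counts of TLR genes called were within 1.5 times the count reported. The cause of the other changes was not tested. With a replicate block the count was 4 for day 3, 0 for cKO against WT after IFNγ, 1 for IFNAR1 against control antibody in WT and in cKO and 1 for control against no antibody in cKO. The block added Tlr6 for IFNγ in WT, and 21 of 26 counts stayed within 1.5 times. With DESeq2 it was 1 for day 5, 2 for the change of the cKO effect from day 3 to day 7, 2 for cKO against WT after IFNγ, 2 without antibody, 1 for IFNAR1 against control in WT and in cKO and 1 for control against no antibody in cKO. With only the groups compared, so fewer libraries to estimate the spread, it was 1 for that change of the cKO effect, 1 for untreated and 0 for IFNγ-treated day 8 cells, 8 and 1 for IFNγ in WT and cKO, 7 with the control antibody, 0 and 5 for control against no antibody in WT and cKO, 5 for cKO:StingKO and 4 for cKO:Irf7KO. With no filter it was 1 for untreated and 3 for IFNγ-treated day 8 cells. With the strand column of the larger total it was 1 without antibody, 0 for control against no antibody in WT and 1 for cKO:Irf7KO. Against cKO set 2 alone it was 5, 0 and 5 for the Sting, Mavs and Irf7 double knockouts, and against set 3 alone 0 for Irf7.

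Leaving out 1 library at a time, counts ran 0 to 2 on day 3, 0 to 1 on day 5, 0 to 0 on day 7, 5 to 6 and 1 to 3 for day 7 against day 3 in WT and cKO, 0 to 1 for the change of the cKO effect, 0 to 0 and 0 to 6 for untreated and IFNγ-treated day 8 cells, 3 to 4, 2 to 8 and 0 to 4 for IFNγ in WT, in cKO and their difference, 0 to 1 in peritoneal cells, 0 to 4, 0 to 0 and 0 to 2 with no, control and IFNAR1 antibody, 0 to 4 and 0 to 0 for IFNAR1 against control in WT and cKO, 0 to 0 for their difference, 0 to 1 and 0 to 0 for control against none, 5 to 6, 4 to 7 and 6 to 7 in sets 1, 2 and 3, and 2 to 4, 1 to 3 and 1 to 3 for the Sting, Mavs and Irf7 double knockouts. Where this left 1 cKO library in an arm, it was assumed to vary like the others.

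Signs turned (log2) with the block for Tlr4 (-0.029) and Tlr8 (-0.021) in cKO against WT after IFNγ and for Tlr7 (-0.33, and -0.012 with no filter) in the difference of the IFNγ responses, and there for Tlr6 with the strand column (0.065). Against cKO set 2, Tlr2 turned in cKO:StingKO (0.55) and cKO:MavsKO (0.032) and Tlr5 in cKO:MavsKO (0.11). Against sets 1 and 3, Tlr5 turned in cKO:StingKO (-0.10 and -0.022) and Tlr2 in cKO:Irf7KO (-0.21 and -0.036). With 1 library left out, cKO against WT after IFNγ ran from -0.64 to 0.57 for Tlr4, -1.62 to 0.14 for Tlr6, -2.78 to 0.43 for Tlr7, -1.45 to 0.99 for Tlr8 and -0.12 to 0.67 for Tlr13. IFNγ in cKO ran from -0.85 to 0.89 for Tlr1, -0.55 to 0.017 for Tlr2, -0.020 to 1.19 for Tlr4, -0.86 to 0.91 for Tlr6, -2.49 to 0.72 for Tlr7, -1.89 to 0.56 for Tlr8 and -0.78 to 0.0091 for Tlr13. The difference of the responses ran from -1.69 to 0.094 for Tlr6, -2.33 to 0.90 for Tlr7 and -1.37 to 1.10 for Tlr8, each of these ends without 1 of the treated cKO libraries. Tlr5 in cKO:StingKO ran from -0.024 to 0.18. The depth of the day 8 libraries limits Tlr5 most, at 0.446 to 4.83 CPM.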

Other observations

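The 2 day 8 cKO libraries whose title and library name disagree were placed in no group. The one titled IFNγ and named as untreated had 30.2 CPM of Tlr9, 36.1 of Tlr3, 7.75 of Tlr5, 35.9 of Tlr1 and 187 of Tlr7 (CPM without scaling), with 2 counts each of Tlr11 and Tlr12. The one titled untreated and named as IFNγ had 404 CPM of Tlr9, 287 of Tlr3, 1.62 of Tlr5, 55.4 of Tlr1 and 246 of Tlr7, with 18 counts of Tlr11 and 188 of Tlr12.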
